A study of Danio rerio with 18 samples.

Results

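The GATA factor genes gata1a, gata2a, gata3, gata4, gata5 and gata6 were followed through early zebrafish development, in embryos injected with an RNA-targeting Csm complex and in mock injected embryos. These 6 genes were chosen by symbol from the 32521 gene identifiers counted in the study. Of the 6, 5 carried the exact symbol in the name table, and gata2a was listed there as GATA2 (ENSDARG00000059327). The other identifiers were ENSDARG00000013477 for gata1a, ENSDARG00000016526 for gata3, ENSDARG00000098952 for gata4, ENSDARG00000017821 for gata5 and ENSDARG00000103589 for gata6.

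GATA factors are transcription factors with a pair of zinc fingers that bind DNA at short sites with the core GATA. By textbook knowledge, GATA1, GATA2 and GATA3 act mainly in blood cells, in ectoderm and in the nervous system, while GATA4, GATA5 and GATA6 act mainly in the endoderm and the heart. In zebrafish, transcription from the embryo's own genome starts on a large scale only after the early cleavage divisions, so RNA in cleaving embryos is largely of maternal origin.

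RNA was sequenced from whole embryos in 18 libraries, 3 for each combination of injection and stage. The StCsm(EGFP) injection was 0.7 ng of the Streptococcus thermophilus Csm complex in 1 nl, with the Cas10 D16A change that removes its DNase activity and a guide RNA against EGFP. Mock embryos received the storage buffer alone. Both groups came from Tg(ddx4:ddx4-EGFP) females of the ABTL background crossed with casper males, so the germ line transgene was shared by all libraries, and the females could be homozygous or heterozygous for it. Each library was a pool of 25 embryos taken at the 128-cell stage, at 5 h post fertilization (5 hpf) or at 24 hpf, and the replicate number stands for 1 of 3 separate injection experiments. In whole embryos, fewer cells of a type and less RNA per cell cannot be told apart. Levels are relative to the counted reads of a library, and RNA amounts per embryo were not measured. A fall between stages is therefore a fall in this relative level.

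The depth of a library ranged between 11763787 and 21092691 reads counted in genes. EGFP, the targeted transcript, was lower with StCsm(EGFP) than with mock in each of the 3 experiments, both in 128-cell embryos and at 5 hpf. Its range at the 128-cell stage was 146 to 354 CPM (counts per 1000000 assigned reads) with StCsm(EGFP) and 234 to 416 CPM in mock libraries, and at 5 hpf it was 55.6 to 98.4 CPM with StCsm(EGFP) and 92.4 to 139 CPM in mock libraries. At 24 hpf EGFP was between 0.851 and 2.10 CPM in all 6 libraries. Its CPM was then higher with StCsm(EGFP) in each of the 3 experiments, on 15, 36 and 12 reads against 12, 15 and 13 in mock libraries. In replicate 3 the reads themselves were fewer with StCsm(EGFP). The study held EGFP counts at 24 hpf too low for a meaningful comparison, and no direction was read from them. The stage labels were checked with marker genes. The summed level of 5 maternal markers was 1060 to 1364 CPM in StCsm(EGFP) and 1259 to 1333 CPM in mock libraries of the 128-cell stage, and 5 markers of early gastrulae summed to 827 to 1110 CPM over the 6 libraries of 5 hpf. Apart from EGFP, all levels are CPM after TMM scaling over the 18 libraries, and since transcript lengths were not used, levels are compared within a gene and not between genes.

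At the 128-cell stage the 6 GATA genes together gave only 32 to 80 reads per library, or 1.45 to 3.09 CPM. Their sum stood at 593 to 924 CPM at 5 hpf and at 78.5 to 91.6 CPM at 24 hpf. A pattern of near absence, a high level at 5 hpf and a lower level at 24 hpf was shared by gata2a, gata3, gata5 and gata6. The erythroid gene gata1a was counted above a few reads only at 24 hpf, and gata4 was low at all 3 stages.

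**Figure D1:**
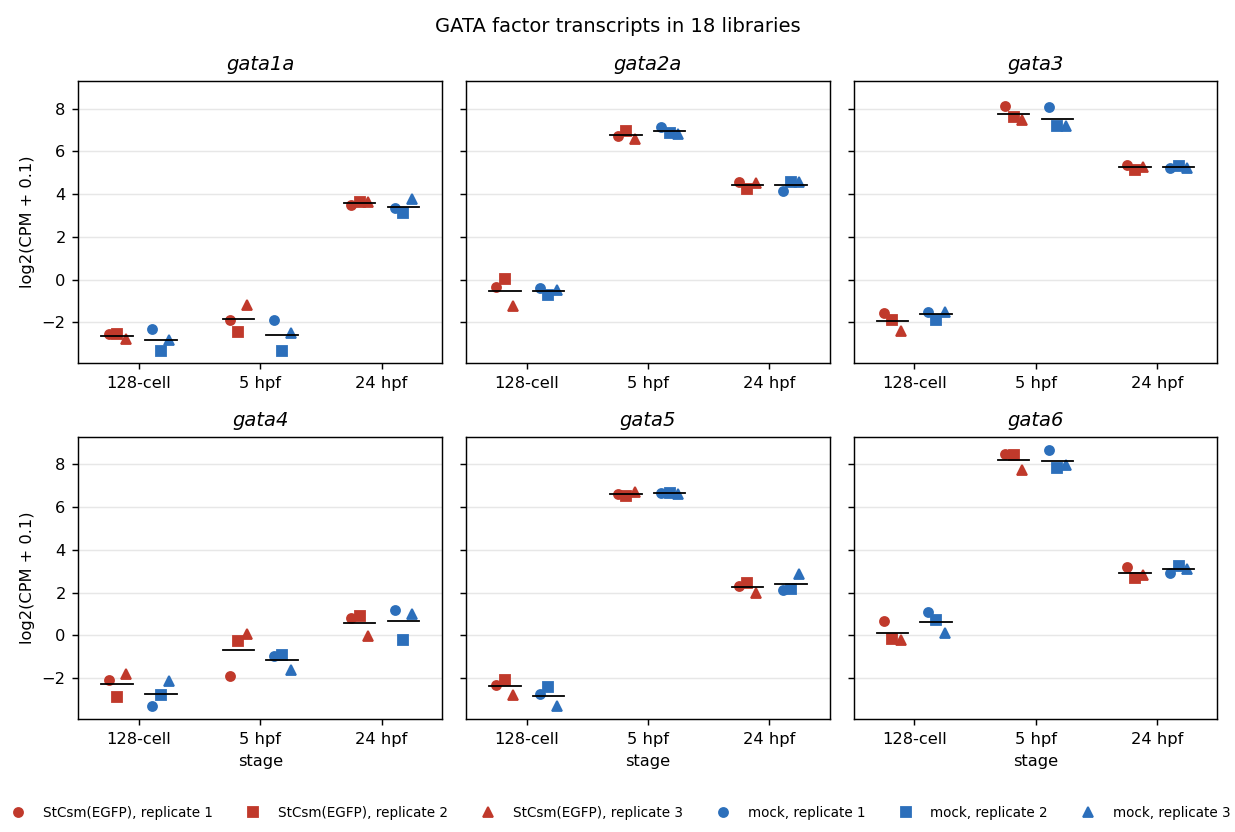
Levels of the 6 GATA factor genes as log2(CPM + 0.1), 1 panel per gene, with StCsm(EGFP) libraries (red) left of mock libraries (blue) at each stage, symbols for the 3 replicates and black bars for the mean of 3. For gata2a, gata3, gata5 and gata6 the 6 libraries of each stage lie apart from those of the other stages, with 5 hpf highest, while red and blue points overlap at 5 hpf and 24 hpf.

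Among the endoderm and heart factors, gata6 was counted with at least 17 reads in every library of the 128-cell stage. GATA6 acts in the development of endoderm and heart. At the 128-cell stage gata6 had 44, 23 and 17 reads in the StCsm(EGFP) libraries, which is 1.50, 0.783 and 0.770 CPM, against 40, 36 and 24 reads or 2.02, 1.54 and 0.994 CPM in mock libraries. At 5 hpf it was at 361, 342 and 217 CPM with StCsm(EGFP) and at 412, 229 and 253 CPM in mock libraries. At 24 hpf the StCsm(EGFP) libraries had 9.06, 6.41 and 6.97 CPM and the mock libraries 7.41, 9.47 and 8.43 CPM. The level was therefore highest at 5 hpf and lowest at the 128-cell stage, and no library of 1 stage reached into the range of another. Replicate 1 was the highest of the 3 replicates at 5 hpf in both injections.

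The change of gata6 between the 128-cell stage and 5 hpf was a log2 fold change of 8.17 (SE 0.25) in StCsm(EGFP) embryos and 7.61 (SE 0.26) in mock embryos, with adjusted p of 6.60e-12 with StCsm(EGFP) and 5.26e-11 in mock embryos by edgeR's quasi-likelihood test. Here and below, a gene was called where its p, adjusted over all tested genes, was under 0.1, and successive steps share the libraries of 5 hpf. After 5 hpf it fell by 5.37 (SE 0.22) in StCsm(EGFP) embryos and by 5.07 (SE 0.23) in mock embryos on the log2 scale, a 33.5-fold lower level at 24 hpf in mock embryos with a 95% interval up to 47.3-fold. Of the 5 GATA genes tested in mock embryos, gata6 had the largest fall. Its 95% interval, -5.56 to -4.57, overlapped that of gata5, -4.77 to -3.72. The level of gata6 remained above its 128-cell level at 24 hpf, by 2.80 (SE 0.24) with StCsm(EGFP) and 2.55 (SE 0.26) in mock embryos on the log2 scale, with adjusted p of 6.93e-08 and 5.93e-07.

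The endoderm regulator gata5, whose loss in zebrafish impairs heart and endoderm formation, had at most 4 reads in any library of the 128-cell stage. The counts were 3, 4 and 1 with StCsm(EGFP) and 1, 2 and 0 in mock libraries, where a count of 0 allows up to 3 reads. At 5 hpf gata5 was at 96.7, 91.3 and 104 CPM with StCsm(EGFP) and at 101, 103 and 97.2 CPM in mock libraries. Its spread at this stage was small, with a mean of 97.3 ± 6.35 CPM with StCsm(EGFP) and 100 ± 2.75 CPM in mock libraries (SD, n = 3 each). At 24 hpf it was at 4.89, 5.30 and 3.81 CPM with StCsm(EGFP), against 4.25, 4.35 and 7.24 CPM in mock libraries, so that StCsm(EGFP) replicate 3 was the lowest and mock replicate 3 the highest of the 6 values.

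Between the 128-cell stage and 5 hpf, gata5 rose by 9.79 (SE 0.32) on the log2 scale in StCsm(EGFP) embryos, with an adjusted p of 1.02e-11 by edgeR's quasi-likelihood test. This value rests on 8 summed reads at the 128-cell stage. The ratio of summed levels was 987 with a counting interval of 501 to 2289, wider than the 547 to 1430 of the fit. In mock embryos, with 3 reads in all at the 128-cell stage, the ratio of summed levels was 2246 with a counting interval of 768 to 10897, and the adjusted p of the fit was 6.86e-11. After 5 hpf gata5 fell by 4.40 (SE 0.23) with StCsm(EGFP) and by 4.24 (SE 0.24) in mock embryos on the log2 scale, or 19.0-fold in mock embryos. At 24 hpf it stood at 3.80 to 5.29% of the mock mean of 5 hpf in StCsm(EGFP) libraries and at 4.24 to 7.22% in mock libraries.

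The third member of this subfamily, gata4, which acts in heart and endoderm development, had no more than 27 reads in any library. At the 128-cell stage it had 4, 1 and 4 reads with StCsm(EGFP) and 0, 1 and 3 in mock libraries. At 5 hpf it had 2, 9 and 14 reads with StCsm(EGFP) and 5, 5 and 3 in mock libraries. At 24 hpf the counts were 16, 27 and 8, or 1.67, 1.77 and 0.872 CPM, with StCsm(EGFP), against 18, 8 and 21, or 2.19, 0.773 and 1.92 CPM, in mock libraries. The 24 hpf values were the highest and those of the 128-cell stage the lowest, but the 5 hpf range of 0.170 to 0.939 CPM over 6 libraries overlapped both.

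In mock embryos gata4 did not pass the filter on low counts, and the summed reads of 24 hpf and the 128-cell stage, 47 and 4, gave a ratio of 26.8 with a counting interval of 9.81 to 103. In StCsm(EGFP) embryos it passed, and its log2 fold change from 128 cells to 24 hpf was 3.53 (SE 0.69) with an adjusted p of 0.000267 by edgeR's quasi-likelihood test. The step between the 128-cell stage and 5 hpf was 2.30 (SE 0.74, adjusted p 0.0137). The step between 5 hpf and 24 hpf was 1.23 (SE 0.61) with an adjusted p of 0.0810. This call was lost under several alternatives, among them DESeq2, a second tool, and the fits without replicate 1 (value 0.66) or replicate 2 (1.18).

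Among the blood, ectoderm and neural factors, gata3 was close to absent at the 128-cell stage. It is known for its part in the ectoderm, the nervous system and T cells. Its counts at this stage were 7, 5 and 2 with StCsm(EGFP) and 5, 4 and 6 in mock libraries, or 0.239, 0.170 and 0.0905 CPM with StCsm(EGFP) and 0.253, 0.171 and 0.248 CPM in mock libraries. At 5 hpf it was at 278, 197 and 175 CPM with StCsm(EGFP) and at 272, 146 and 147 CPM in mock libraries. Replicate 1 was again the highest in both injections, as for gata6. At 24 hpf the StCsm(EGFP) libraries held 41.1, 34.9 and 38.0 CPM and the mock libraries 37.1, 39.4 and 36.8 CPM, a narrow range with means of 38.0 ± 3.13 CPM with StCsm(EGFP) and 37.8 ± 1.43 CPM in mock libraries (SD, n = 3 each).

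The log2 fold change of gata3 between the 128-cell stage and 5 hpf was 10.17 (SE 0.27) in StCsm(EGFP) embryos and 9.63 (SE 0.30) in mock embryos, with adjusted p of 3.49e-12 with StCsm(EGFP) and 2.28e-11 in mock embryos by edgeR's quasi-likelihood test. The StCsm(EGFP) value rests on 14 summed reads at the 128-cell stage. Its counting interval, a ratio of 732 to 2249, was wider than the 769 to 1727 of the fit. After 5 hpf gata3 fell by 2.501 (SE 0.17) with StCsm(EGFP) and by 2.24 (SE 0.19) in mock embryos, or 4.72-fold in mock embryos with a 95% interval up to 6.27-fold. Its libraries of 24 hpf kept 18.5 to 21.8% of the mock mean of 5 hpf with StCsm(EGFP) and 19.5 to 20.9% in mock libraries. The corresponding shares for gata6 were 2.15 to 3.04% with StCsm(EGFP) and 2.49 to 3.18% in mock libraries, and the 95% intervals of the 2 falls in mock embryos, -2.65 to -1.83 for gata3 and -5.56 to -4.57 for gata6, did not overlap.

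For gata2a, which acts in blood progenitors, endothelium and ectoderm, the counts at the 128-cell stage were 20, 27 and 7 with StCsm(EGFP) and 13, 12 and 15 in mock libraries. In CPM these were 0.682, 0.920 and 0.317 with StCsm(EGFP) and 0.658, 0.512 and 0.621 in mock libraries. At 5 hpf gata2a was at 106, 123 and 96.4 CPM with StCsm(EGFP) and at 139, 116 and 114 CPM in mock libraries. At 24 hpf it was at 23.8, 18.8 and 22.7 CPM with StCsm(EGFP), against 17.5, 23.2 and 23.4 CPM in mock libraries. As for gata3, the stages did not overlap in any library and 5 hpf was highest.

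The log2 fold change of gata2a between the 128-cell stage and 5 hpf was 7.30 (SE 0.29) with StCsm(EGFP) and 7.68 (SE 0.25) in mock embryos, and both passed the test (adjusted p 6.37e-11 and 2.79e-11, edgeR's quasi-likelihood test). From 5 hpf on it fell by 2.32 (SE 0.22) with StCsm(EGFP) and by 2.51 (SE 0.18) in mock embryos on the log2 scale, or 5.70-fold in mock embryos. The falls of gata2a and gata3 had overlapping intervals, -2.90 to -2.12 and -2.65 to -1.83 in mock embryos.

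The erythroid regulator gata1a, needed for red blood cell formation in zebrafish, differed from these genes in timing. It had 2, 2 and 1 reads with StCsm(EGFP) and 2, 0 and 1 in mock libraries of the 128-cell stage, and later, at 5 hpf, 2, 1 and 5 reads with StCsm(EGFP) and 2, 0 and 1 in mock libraries. At 24 hpf it had 106, 185 and 113 reads, or 11.0, 12.1 and 12.3 CPM, with StCsm(EGFP), against 83, 88 and 146 reads, or 10.1, 8.50 and 13.4 CPM, in mock libraries. Its 2 earlier stages overlapped, and every library of 24 hpf was above all 12 earlier ones.

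Between 5 hpf and 24 hpf the log2 fold change of gata1a was 5.81 (SE 0.46) in StCsm(EGFP) embryos, with an adjusted p of 6.66e-08 by edgeR's quasi-likelihood test. In mock embryos, where 3 reads were counted over the 3 libraries of 5 hpf, the ratio of summed levels was 132 with a counting interval of 44.9 to 645, and the adjusted p was 8.54e-08. The step between the 128-cell stage and 5 hpf was 1.52 (SE 0.72) with StCsm(EGFP), past the threshold at an adjusted p of 0.0781, and 0.74 (SE 1.07) in mock embryos, where the adjusted p was 0.556. With StCsm(EGFP) it rests on 8 against 5 summed reads, a ratio of 3.33 with a counting interval of 0.960 to 12.9. The call was lost under several alternatives, among them the fits without replicate 1 (value 1.70) or replicate 3 (0.67). The test of the difference between the injections in this step gave 0.88 (SE 1.35, adjusted p 0.966).

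**Figure D2:**
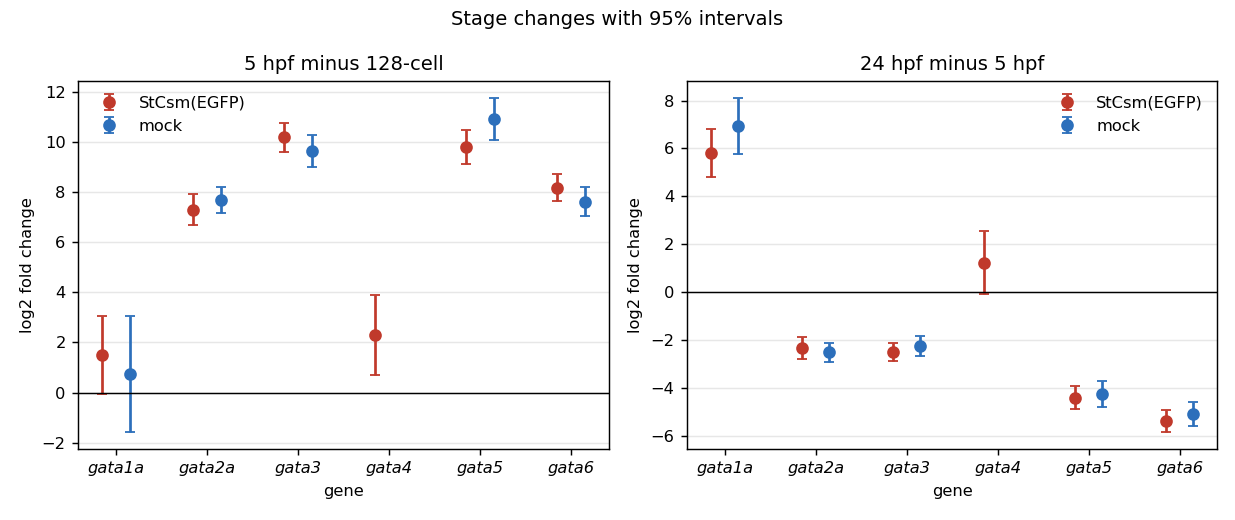
Log2 fold changes between successive stages with 95% intervals from the edgeR fits (vertical axis) for each GATA gene (horizontal axis), StCsm(EGFP) embryos in red left of mock embryos in blue, with no mock value for gata4. Where a stage has few reads, these intervals can be narrower than counting error alone. Between 5 hpf and 24 hpf gata1a lies above 0, and gata2a and gata3 fell less than gata5 and gata6.

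Counted over the family, all 6 members in StCsm(EGFP) embryos and 4 of the 5 tested in mock embryos were higher at 5 hpf than at the 128-cell stage, where 36.4% of all tested genes with StCsm(EGFP) and 36.7% in mock embryos were higher. With StCsm(EGFP) the gata1a call rests on 8 against 5 summed reads and the gata4 call on 25 against 9. The gata1a call was not kept under every alternative. In the order of the log2 fold changes of 19100 tested genes in mock embryos, gata5 stood at rank 71, gata3 at 165, gata2a at 491 and gata6 at 508. The mock rank of gata5 rests on 3 summed reads at the 128-cell stage. Among 19300 tested genes with StCsm(EGFP) the order differed, with gata3 at rank 153, gata5 at 187, gata6 at 430 and gata2a at 631. At 24 hpf, 4 members were lower than at 5 hpf in each injection, against 37.9% of all genes with StCsm(EGFP) and 40.0% in mock embryos. In the same step 2 members with StCsm(EGFP), gata1a and gata4, and 1 in mock embryos, gata1a, were higher, against 40.6% of all genes with StCsm(EGFP) and 41.7% in mock embryos. The gata4 call of this step was not kept under every alternative either. At 24 hpf all 6 members with StCsm(EGFP) and all 5 tested in mock embryos were above their 128-cell level, which held for 45.3% of all genes with StCsm(EGFP) and 47.0% in mock embryos. The filter on low counts took the 3 stages together. It passed gata1a through its 24 hpf reads, with at most 5 reads in any earlier library. It passed gata3 and gata5, with at most 7 reads in a 128-cell library, through the later stages. Reads of gata4 with StCsm(EGFP) were also most numerous at 24 hpf. Counting these members as higher at the stages that passed them is no separate support for a rise. The median log2 fold change of the tested members in mock embryos was 7.68 between the 128-cell stage and 5 hpf and -2.51 between 5 hpf and 24 hpf, beside -0.01 and 0.04 over all tested genes. Scaling by library totals in place of TMM shifted the median of all genes in mock embryos by -0.63 between the 128-cell stage and 5 hpf by -0.39 between 5 hpf and 24 hpf and by -1.02 for 24 hpf against the 128-cell stage, and no member changed direction in a stage comparison under it. The rise of gata6 in mock embryos at 24 hpf against the 128-cell stage, 2.55 on the log2 scale with TMM, was 1.51 with library totals, and it passed the threshold under both.

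Because reads of 1 library share 1 scaling, the make-up of the GATA reads within a library does not depend on it. At the 128-cell stage gata6 gave 37.1 to 65.6% of the reads of the 6 genes over the 6 libraries, and gata2a gave 21.3 to 43.5%. At 5 hpf gata6 gave 36.5 to 45.4%, gata3 24.0 to 33.0%, gata2a 12.6 to 19.5% and gata5 10.9 to 17.5%. At 24 hpf gata3 gave 40.4 to 47.2%, gata2a 22.3 to 27.1%, gata1a 9.92 to 15.3% and gata6 8.09 to 11.0%. For each read of gata3 a library held 4.0 to 9.0 reads of gata6 at the 128-cell stage, 1.24 to 1.74 at 5 hpf and 0.183 to 0.240 at 24 hpf, without overlap between the stages. The 128-cell ratios rest on 2 to 7 reads of gata3 per library, and no counting interval was computed for them. The ratio of gata5 to gata6 reads was 0.245 to 0.480 at 5 hpf and 0.459 to 0.859 at 24 hpf, which overlapped slightly. Longer transcripts yield more reads in this kind of library, so these shares describe reads and not molecules, and their changes between stages are what can be compared.

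**Figure D3:**
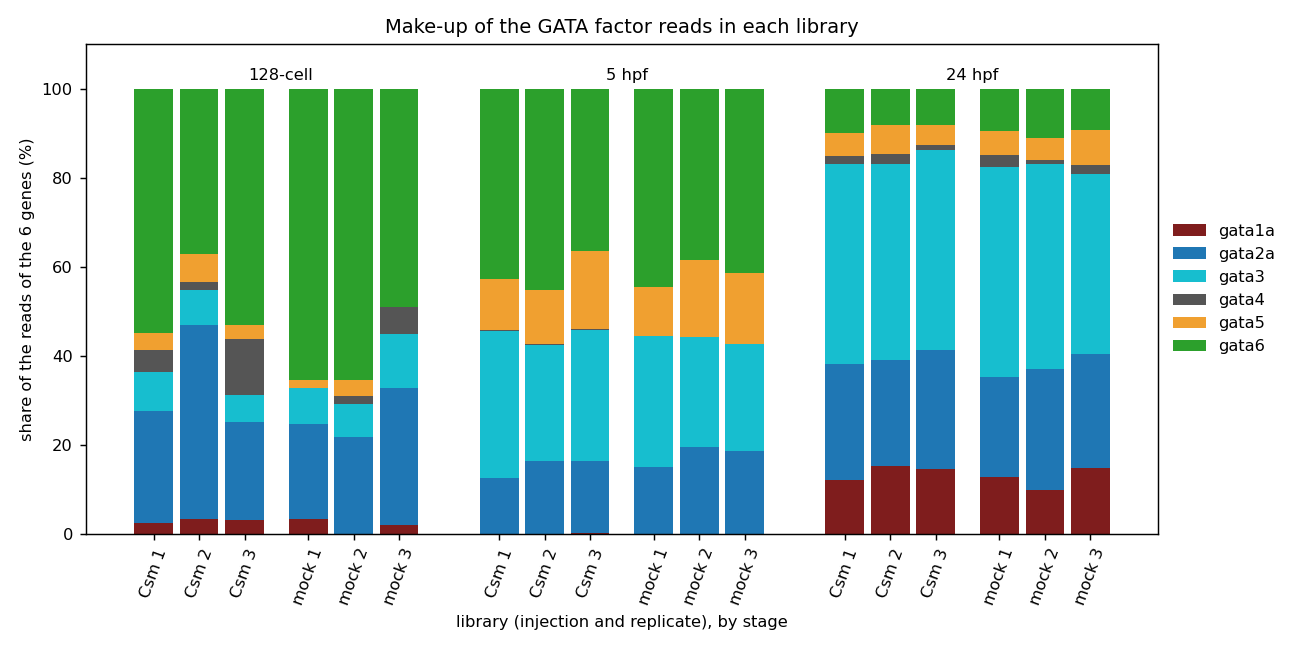
Share of each gene in the reads of the 6 GATA genes (vertical axis, %) in each library, grouped by stage with StCsm(EGFP) libraries (Csm) left of mock libraries. The gata6 share is 36.5 to 45.4% at 5 hpf and 8.09 to 11.0% at 24 hpf, where gata3 holds 40.4 to 47.2% and gata1a 9.92 to 15.3%, while the bars at the 128-cell stage rest on 32 to 80 reads.

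The few reads at the 128-cell stage were set beside transcripts that belong to later stages. A sum of 8 muscle genes was detected in all 6 libraries of the 128-cell stage, at 0.0191 to 0.0537% of its mock mean of 24 hpf with StCsm(EGFP) and at 0.0289 to 0.204% in mock libraries, and 2 globin genes were at 0.0155 to 0.0387% with StCsm(EGFP) and at 0.0282 to 0.253% in mock libraries. The reads of gata1a at the 128-cell stage stood at 0.425 to 0.640% of its own mock mean of 24 hpf with StCsm(EGFP) and at 0 to 0.950% in mock libraries. Those of gata6 stood at 9.12 to 17.8% with StCsm(EGFP) and at 11.8 to 24.0% in mock libraries. Relative to 5 hpf, the 5 gastrula markers were at 0.168 to 0.229% of their mock mean in libraries of the 128-cell stage, and gata6 was at 0.258 to 0.679%, gata2a at 0.258 to 0.748%, gata3 at 0.0480 to 0.134% and gata5 at 0 to 0.136%. The values of gata6 and gata2a were thus above the range of the gastrula markers in every library, and those of gata3 and gata5 were below it. Whether the reads of these genes at the 128-cell stage come from maternal RNA or from other libraries was not tested.

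The comparison of the injections asked whether StCsm(EGFP) altered GATA transcripts at a given stage. No member passed the threshold at any stage. At the 128-cell stage 2 members passed the filter on low counts and 0 were called by edgeR's quasi-likelihood test, while 5.05% of all tested genes were called. By edgeR 1 of the 2, gata6, had an unadjusted p under 0.05, as had 2897 of the 15498 genes tested at this stage. Its log2 fold change was -0.61 (SE 0.25, 95% interval -1.15 to -0.06), with a p of 0.0308 and an adjusted p of 0.214. The unadjusted p of gata6 was 0.182 in edgeR's fit without the replicate block and 0.211 by DESeq2, the second tool, which gave neither of the 2 an adjusted p. It was lower with StCsm(EGFP) in 3 of 3 experiments, at 0.741, 0.510 and 0.775 of the mock level, although the 3 StCsm(EGFP) values overlapped the mock values. For gata2a the log2 fold change was 0.08 with an interval of -0.69 to 0.86.

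At 5 hpf 4 members were tested and 0 were called, with 0.0% of all tested genes called and 131 of 15819 genes at an unadjusted p under 0.05, none of them a member. DESeq2 called 2 genes in all and 0 members. The log2 fold changes were 0.23 for gata3 (95% interval -0.19 to 0.66), 0.05 for gata6 (-0.46 to 0.56), -0.05 for gata5 (-0.45 to 0.36) and -0.19 for gata2a (-0.61 to 0.24). The narrowest intervals therefore still allowed changes of about 1.28-fold up or 1.37-fold down for gata5. The level of gata3 was higher with StCsm(EGFP) in 3 of 3 experiments at this stage. At the 128-cell stage it was lower in 3 of 3, on 2 to 7 reads per library. The experiments also agreed at a few reads for gata5 at the 128-cell stage and gata1a at 5 hpf, each lower in 0 of 3. Such agreement in direction was not tested, and at 5 hpf the counts did not bear out the pairing by replicate number.

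At 24 hpf all 6 members were tested and 0 were called by edgeR's quasi-likelihood test, with 0.0% of all genes called, 819 of 16986 genes at an unadjusted p under 0.05 and no member among them. DESeq2 called 0 genes. The log2 fold changes lay between -0.18 for gata6 (95% interval -0.68 to 0.32) and 0.18 for gata1a (-0.24 to 0.60). The narrowest interval was that of gata3, -0.30 to 0.33 around 0.01, and the widest that of gata4, -1.11 to 0.92. These intervals give the changes that the data of 3 experiments still allow, and they do not show that the levels were the same.

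**Figure D4:**
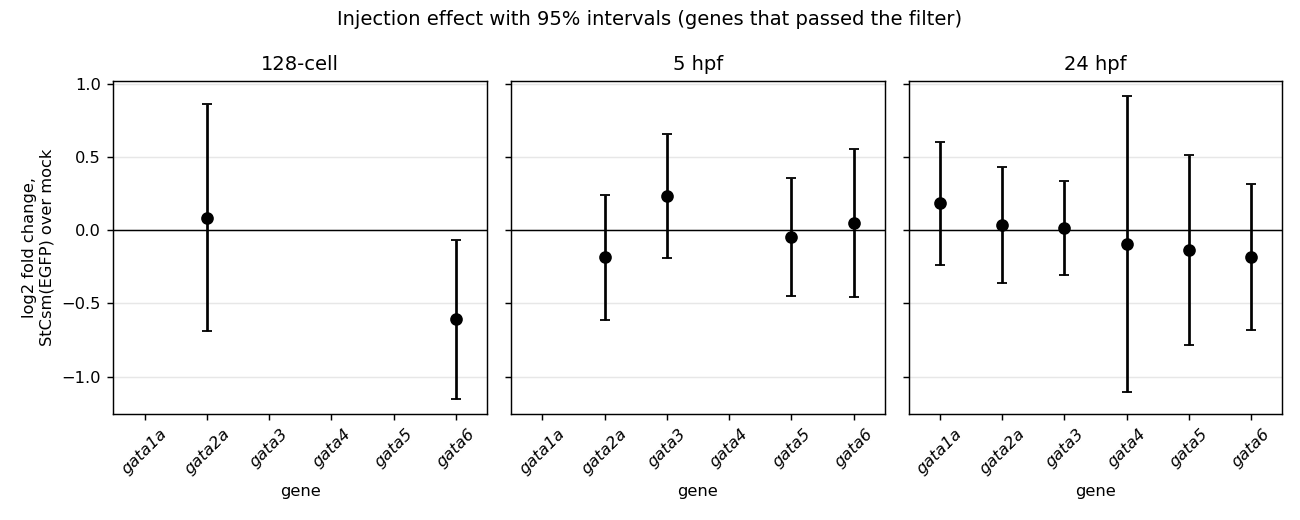
Log2 fold change of StCsm(EGFP) over mock (vertical axis) with 95% intervals for the GATA genes that passed the filter at each stage. Of the 12 intervals, 11 include 0, and that of gata6 at the 128-cell stage runs from -1.15 to -0.06.

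The difference of the injection effect between stages was tested in 1 fit of all 18 libraries. Between 5 hpf and the 128-cell stage 0 of 6 members were called, beside 0.0346% of all genes, and the member with the smallest p was gata6, at 0.64 (SE 0.32, adjusted p 0.940, edgeR's quasi-likelihood test). Between 24 hpf and 5 hpf 0 of 6 were called, beside 0.0%, and between 24 hpf and the 128-cell stage 0 of 6, beside 0.0148%. No member had an unadjusted p under 0.05 in these tests, and DESeq2 called 0 members. The gata6 value at the 128-cell stage was therefore not shown to differ from that at the later stages.

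The genes around the GATA factors were taken from lists for their tissues. The filter on low counts took the stages together for these genes as well. A list gene close to absent at a stage was tested only through its reads at the other stages. Its call as higher where it has reads, or lower where it has few, is no separate support for a change. The counts of each list beside the shares over all tested genes are therefore descriptive. The endoderm list had 10 tested genes in mock embryos, of which 8 were higher and 0 lower at 5 hpf than at the 128-cell stage, with a median log2 fold change of 5.96. Over all tested genes in mock embryos 36.7% were higher and 35.9% lower in this step, and 41.7% were higher and 40.0% lower between 5 hpf and 24 hpf. In the later step 3 endoderm genes were higher and 5 lower, counts near those shares, with a median of -2.502. The endoderm determinant sox32 averaged 0.176 CPM at 24 hpf and 124 CPM at 5 hpf, a fall by 9.39 (SE 0.31, adjusted p 6.32e-11, edgeR's quasi-likelihood test), and the mesendoderm gene mixl1 fell by 8.12 (SE 0.28). The gut fatty acid binding gene fabp2 was higher at 24 hpf, at 90.8 CPM against 0.238 CPM at 5 hpf. The limit set by the filter covers sox32 at 24 hpf and fabp2 at 5 hpf.

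The list of ventral ectoderm genes, tissue in which gata2a and gata3 are known to be active in the zebrafish gastrula, had 10 tested genes in mock embryos. Of these 8 were higher and 0 lower at 5 hpf. In the next step, to 24 hpf, 3 were higher and 6 lower. The shares over all tested genes were 36.7% higher and 35.9% lower in the earlier step and 41.7% higher and 40.0% lower in the later one. The ventral homeobox gene ved averaged 13.2 CPM at 24 hpf and 721 CPM at 5 hpf, a fall by 5.70 (SE 0.22), while tp63, a regulator of epidermis, averaged 52.6 CPM at 24 hpf and 5.84 CPM at 5 hpf. The erythroid list had 13 tested genes in mock embryos. At 5 hpf 5 were higher and 3 lower than at the 128-cell stage, against 36.7% and 35.9% of all genes, and between 5 hpf and 24 hpf 10 were higher and 2 lower, against 41.7% and 40.0% of all genes, with a median of 4.56. The globin gene hbae1.3 averaged 180 CPM at 24 hpf and 0.0288 CPM at 5 hpf, whereas klf17, a factor of early erythroid and hatching gland cells in zebrafish, averaged 30.5 CPM at 24 hpf and 380 CPM at 5 hpf. The limit set by the filter holds for the ventral ectoderm and erythroid counts too, as for hbae1.3 at 5 hpf.

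The list of proteins that act together with GATA factors had 8 tested genes in mock embryos. Of these 3 were higher and 2 lower at 5 hpf, and 6 were higher and 2 lower between 5 hpf and 24 hpf. The count of higher genes at 5 hpf was near the share over all tested genes in mock embryos, of which 36.7% were higher and 35.9% lower, and the counts of the later step stood beside 41.7% higher and 40.0% lower. With StCsm(EGFP) 4 of 8 were higher and 2 lower at 5 hpf, beside 36.4% and 36.5% of all tested genes. The blood regulator tal1 averaged 23.8 CPM at 24 hpf and 0.144 CPM at 5 hpf, a rise that falls in the same interval as that of gata1a. The friend-of-GATA genes zfpm2b and zfpm2a fell by 3.69 (SE 0.34) and fell by 2.46 (SE 0.31) on the log2 scale between the 128-cell stage and 5 hpf. The heart list had only 4 tested genes in mock embryos. Of these 1, bmp4, was higher at 5 hpf, and 2 were higher and 2 lower at 24 hpf. The highest rise was that of the myosin light chain gene myl7, which averaged 36.4 CPM at 24 hpf and 0.0538 CPM at 5 hpf. With 4 genes, no reading of the heart counts against those shares was made. The limit set by the filter holds for the cofactor and heart counts too, as for tal1 and myl7 at 5 hpf.

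Between the injections at a given stage, only krt4 and krt5 of these lists passed the threshold, both at the 128-cell stage. There 5.05% of all tested genes were called, and no gene was called in the fit without the replicate block. These keratin genes of the outer epithelium were lower with StCsm(EGFP), by a log2 fold change of -2.83 (SE 0.31, adjusted p 0.0134) and -1.57 (SE 0.34, adjusted p 0.0515) by edgeR's quasi-likelihood test. The level of krt4 was 8.19, 0.681 and 1.49 CPM with StCsm(EGFP) and 40.3, 2.69 and 26.7 CPM in mock libraries, and it averaged 20072 CPM with StCsm(EGFP) and 22238 CPM in mock libraries at 24 hpf. The 8 muscle genes moved with it, at 6.99, 2.49 and 2.63 CPM with StCsm(EGFP) and 26.6, 3.76 and 16.5 CPM in mock libraries of the same stage, and their part in the keratin result was not tested. The muscle sum, like the gata6 level, was lower with StCsm(EGFP) in 3 of 3 experiments at this stage, and its part in the gata6 values was not tested. Other late markers were not lower in every experiment. With StCsm(EGFP) 2 globin genes summed to 0.136 CPM against 0.124 CPM in mock in replicate 3. These sums are a few reads each, so their direction was not read. In the same libraries 4 reads of gata4 made 0.181 CPM with StCsm(EGFP) and 3 reads made 0.124 CPM in mock. For 4 endothelial genes the sum was 4.09 with StCsm(EGFP) against 3.44 CPM in replicate 1, and for 4 neural genes 1.26 against 1.02 CPM in replicate 2. Each of these sets was lower with StCsm(EGFP) in the other experiments. In the difference of the injection effects, 5 hpf minus 128-cell stage, krt4 was the 1 gene of these lists that passed the threshold, with a log2 difference of 2.80 (SE 0.45, adjusted p 0.0645, edgeR's quasi-likelihood test). In this comparison 0.0346% of all tested genes were called, and none without the replicate block.

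Of the other genes with GATA-type zinc fingers, 4 were matched. The paralogue gata1b had 0 to 11 reads in any library and at 24 hpf 0, 2 and 0 reads with StCsm(EGFP) and 0 in all mock libraries. The paralogue gata2b was uneven between experiments at the 128-cell stage. It had 22, 129 and 4 reads, or 0.750, 4.39 and 0.181 CPM, with StCsm(EGFP) and 6, 90 and 4 reads, or 0.304, 3.84 and 0.166 CPM, in mock libraries, so that replicate 2 was the highest in both injections. Its injection effect at this stage was 0.37 (SE 0.27, adjusted p 0.501), and at 5 hpf it had 1 to 6 reads per library. For gata2a at this stage replicate 2 was the highest of the StCsm(EGFP) libraries at 0.920 CPM and the lowest of the mock libraries at 0.512 CPM.

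In contrast to gata2a, gata3, gata5 and gata6, which were higher at 5 hpf than at the 128-cell stage, trps1 and gatad2b were lower. The repressor gene trps1 averaged 10.0 CPM with StCsm(EGFP) and 9.95 CPM in mock libraries at the 128-cell stage, and 3.62 CPM with StCsm(EGFP) and 2.79 CPM in mock libraries at 5 hpf. Its log2 fold change in this step was -1.54 (SE 0.30) with StCsm(EGFP) and -1.82 (SE 0.26) in mock embryos. The gene of the nucleosome remodelling subunit gatad2b fell by 1.60 (SE 0.33) with StCsm(EGFP) and by 1.67 (SE 0.25) in mock embryos in the same step. At 24 hpf gatad2b was at 3.75, 6.61 and 2.83 CPM with StCsm(EGFP) and 1.82, 1.35 and 2.29 CPM in mock libraries. These groups did not overlap, and the test gave 1.24 (SE 0.38) with a p of 0.00982 and an adjusted p of 0.977, beside 0.0% of all genes called.

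**Figure D5:**
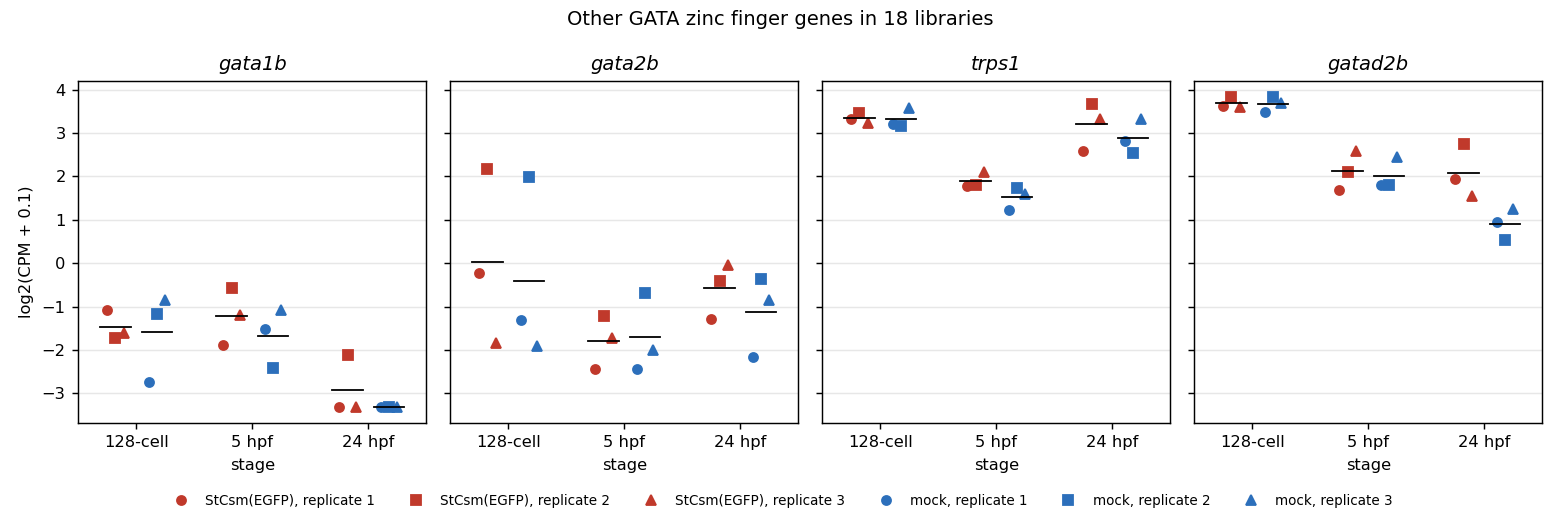
Levels of 4 further genes with GATA-type zinc fingers as log2(CPM + 0.1), StCsm(EGFP) libraries (red) left of mock libraries (blue) at each stage, with symbols for replicates and black bars for means of 3. The squares of replicate 2 lie at 4.39 and 3.84 CPM for gata2b at the 128-cell stage, and trps1 and gatad2b are lower at 5 hpf than at the 128-cell stage.

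As a description of the patterns, each GATA gene was set beside 16632 genes with a mean of at least 1 CPM by the root mean square difference of centred log2(CPM + 1) profiles over the 18 libraries. Among the members, gata5 and gata6 were closest to each other (0.51), followed by gata2a and gata3 (0.62). The genes nearest to gata6 were chrd, a BMP antagonist of the gastrula organizer (0.30), and wnt11f2 (0.35). Those nearest to gata5 were vsir (0.25) and mid1ip1a (0.27), those nearest to gata3 were ISM1 (0.15) and ESRP1 (0.27), and those nearest to gata2a were znf750 (0.20) and cldn8.2 (0.21). For gata1a they were GRIA3 (0.12) and her8.2 (0.13), both with medians under 0.2 CPM at the earlier stages and of 11.4 and 11.3 CPM at 24 hpf. The low gata4 was nearest to ATP6V0C (0.22) and zfta (0.25), which had far more reads than gata4 at the 128-cell stage. The 18 libraries share 3 stages and 3 experiments, so many genes with the same stage pattern come close.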

How the data were processed

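Whole-embryo poly(A) RNA was sequenced with a Lexogen CORALL kit in 18 libraries. The deposited files hold raw read counts per gene, made by the authors, whose processing notes list bcl2fastq 2.16.10, UMI-tools 1.0.0, cutadapt 2.4, STAR 2.7.2b, HTSeq 0.11.2 and the build GRCz11. The strand setting of the counting is not given in the sources used here. The deposited normalized tables were not used. Special rows for unassigned reads were left out. Reads without a feature were 11.1 to 17.9% of listed counts, ambiguous reads 0.669 to 1.70% and reads with several alignments 3.77 to 14.8%, which can take reads from near-identical paralogues. The 29201 symbols came from a name table. No replicate pair differed by less than sampling noise (lowest chi-square per degree of freedom 10.1).

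Counts were filtered with filterByExpr, scaled with TMM and tested with edgeR 4.0.16 (R 4.3.3, limma 3.58.1) by the robust quasi-likelihood test, with the replicate number as a block and a Benjamini-Hochberg adjusted p under 0.1. The injections were compared within each stage, the stages within each injection, and the difference of effects over all 18 libraries. Deviations from group means of StCsm(EGFP) and mock libraries correlated at 0.55 to 0.74 for the same replicate number at the 128-cell stage, 0.01 to 0.63 at 5 hpf and 0.23 to 0.48 at 24 hpf. For different numbers they correlated at -0.60 to -0.05, -0.67 to 0.58 and -0.37 to 0.19. The ranges overlapped at 5 hpf, so the pairing by number was not borne out by the counts at that stage. Between stages within an injection, the ranges for same and different numbers overlapped as well. They were 0.11 to 0.47 against -0.41 to 0.22 for the 128-cell stage and 5 hpf. For 5 hpf and 24 hpf they were -0.15 to 0.39 against -0.43 to 0.47. For the 128-cell stage and 24 hpf they were 0.004 to 0.34 against -0.38 to 0.16. The study treats the experiment as a batch. DESeq2 1.42.0 was an alternative, with other scalings, filters and thresholds, and each replicate left out in turn. The fits were also run on simulated counts with known changes, far smaller than the largest stage changes of the members. No outcome of that run is used here. Each SE of an edgeR fit was calculated back from the log2 fold change and the F statistic of its test. The 95% intervals of the fits use that SE. Where a stage has few reads, they can be narrower than counting error alone. Ratios of summed reads carry exact 95% binomial intervals, which cover counting error only.

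The genes, lists and tests were chosen with earlier results of these data known. The text names all members, the 2 genes most like each, and from each list at most 2 members per direction with the smallest p. The paralogues gata1b and gata2b were listed with 2 other genes. Of 13 cofactor symbols 9 were matched, of 19 erythroid 14, of 13 endoderm 11, of 12 heart 6, of 12 ventral ectoderm 10, of 10 muscle 8 and of 4 globin 2. No sequences or gene coordinates were used.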

Additional observations from a re-analysis of the deposited data

How the results depend on the processing

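Values of gata2a, gata3, gata5 and gata6 between stages kept their direction and call under every alternative run. Of 330 values of members between stages under alternatives, 320 kept both, and 10 kept only the direction: the step of gata1a between the 128-cell stage and 5 hpf and that of gata4 between 5 hpf and 24 hpf in StCsm(EGFP) embryos, each lost under 5 alternatives. No injection effect on a member was called under any alternative. Members with fewer than 10 reads per library are limited by depth.

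The replicate block decided the number of genes called between injections at the 128-cell stage, 783 with it and 0 without it, and changed no call of a member. That number was 1513 with no filter on low counts, 6 in 1 fit of 18 libraries, 199 at an adjusted p threshold of 0.05 and 102 to 875 with 1 replicate left out, lowest without replicate 2. At 5 hpf 0 genes were called, against 2 with DESeq2, 6 with no filter, 1 in 1 fit of 18 libraries and 0 to 22 with 1 replicate left out. At 24 hpf 0 were called, against 72 with no filter and 0 to 46 with 1 replicate left out. For the difference of injection effects, 7 genes (5 hpf minus 128-cell) became 0 without the block, 44 with DESeq2, 4 at 0.05 and 0 to 15 with 1 replicate left out. For 24 hpf minus 128-cell, 3 became 0 without the block, 33 with DESeq2, 0 at 0.05 and 0 to 52 with 1 replicate left out. For 24 hpf minus 5 hpf, 0 became 1 with DESeq2. The cause of these changes was not tested.

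Uncalled injection effects changed sign with 1 replicate left out. The log2 fold changes then ran for gata2a from -0.37 to 0.42 at the 128-cell stage, for gata5 from -0.112 to 0.0389 and for gata6 from -0.19 to 0.19 at 5 hpf. At 24 hpf they ran for gata2a from -0.16 to 0.20, for gata3 from -0.0490 to 0.109, for gata4 from -0.70 to 0.35, for gata5 from -0.39 to 0.25 and for gata6 from -0.405 to 0.0155. Differences of effects ran for gata2a from -0.636 to 0.0388 and for gata4 from -1.52 to 1.07 (5 hpf minus 128-cell). For 24 hpf minus 5 hpf they ran for gata2a from -0.10 to 0.51, for gata4 from -1.53 to 0.32, for gata5 from -0.42 to 0.37 and for gata6 from -0.60 to 0.21. For 24 hpf minus 128-cell they ran for gata1a from -1.03 to 0.29 and for gata2a from -0.41 to 0.55. With library totals the difference of gata5 (24 hpf minus 5 hpf) was 0.0340 and that of gata2a (24 hpf minus 128-cell) 0.0285.

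Of the 12 genes named as most like a member, 3 remained with a pseudocount of 0.1 and 3 with Pearson correlation.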
